A study of Mus musculus with 52 samples.

Results

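The vascular endothelial growth factor (VEGF) family comprised 10 of the 24421 gene symbols counted in these data. They were the 5 ligand genes Vegfa, Vegfb, Vegfc, Figf (the older symbol of Vegfd) and Pgf, the 3 receptor tyrosine kinase genes Flt1, Kdr and Flt4, and the 2 co-receptor genes Nrp1 and Nrp2. Members were taken by symbol as genes of the family, and all 10 were present in each of the 52 libraries. RNA came from Cilia-APEX-IMCD3 cells, an immortalized mouse line from the inner medullary collecting duct of the kidney that carries a peroxidase directed to the cilium. The design asked how homozygous missense changes in Wdr34 and Wdr60, which encode the intermediate chains of the ciliary motor dynein-2, alter expression in ciliated and in nonciliated cells. There were 13 clones with 4 technical replicate libraries each.

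Mutant clones were made by CRISPR cytosine base editing, and each clone, control or mutant, grew from 1 sorted cell, so that a genotype cannot be told apart from the clone that carries it. Ciliated mutants were a Wdr60 clone (p.Ala911Val) and 2 Wdr34 clones labelled 1 and 3, for which the labels do not say which of the alleles p.Arg183Trp and p.Gly394Ser each carries. By the study's account the p.Gly394Ser cells also hold an unintended heterozygous missense change in Wdr34. Nonciliated mutants were a Wdr60 clone (p.Ala911Val) and a Wdr34 clone (p.Arg183Trp). Controls were 4 ciliated clones (D8, H12, A4 and G7) and 4 nonciliated clones (AB, 1, 2 and 3). By the study's methods control cells received the base editor and a guide vector with no target sequence, and the labels call all of these clones CRISPR controls, although the title of AB lacks the prefix BE that those of 1, 2 and 3 carry. According to the methods ciliated cells were serum-starved, whereas the labels give the same serum-containing medium for all cells. State, serum, choice of clones and time of sequencing cannot be told apart, and the labels do not say whether a clone of 1 state is also a clone of the other.

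VEGF ligands are secreted dimers that drive the growth of blood and lymphatic vessels. VEGF-A signals through Kdr and also binds Flt1, VEGF-B and placental growth factor bind Flt1, and VEGF-C and VEGF-D bind Flt4, while neuropilins bind VEGFs as well as class 3 semaphorins and have no kinase of their own. In the kidney, epithelial cells are a source of VEGF-A, and the receptors are known mainly from the endothelium.

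The sequences before the start sites of some of the members that carry main results are shown first. Figf was called higher in some mutant clones with libraries as samples, and Vegfc was above 3 counts in a single clone, a mutant. Flt4 differed most among control clones, and Vegfa and Vegfb stood at opposite ends in the same control clones. Each line is 250 bases upstream of the RefSeq start site (GRCm38.p6, 5′ to 3′ on the gene's strand), and capitals mark the letters of 5 motifs searched on both strands. These were the GC box GGGCGG, the hypoxia response cores ACGTG and GCGTG, the TATA box TATAAA and the AP-1 site TGANTCA. Windows were chrX:164373272-164373521 for Figf (plus strand), chr8:54077282-54077531 for Vegfc (plus strand), chr11:49609429-49609678 for Flt4 (plus strand), chr17:46032378-46032627 for Vegfa (minus strand) and chr19:6987652-6987901 for Vegfb (minus strand).
Figf: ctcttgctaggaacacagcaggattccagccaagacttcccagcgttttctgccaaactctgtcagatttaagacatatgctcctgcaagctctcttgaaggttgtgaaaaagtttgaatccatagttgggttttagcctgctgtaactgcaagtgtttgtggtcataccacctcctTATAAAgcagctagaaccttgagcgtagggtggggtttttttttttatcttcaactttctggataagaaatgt
Vegfc: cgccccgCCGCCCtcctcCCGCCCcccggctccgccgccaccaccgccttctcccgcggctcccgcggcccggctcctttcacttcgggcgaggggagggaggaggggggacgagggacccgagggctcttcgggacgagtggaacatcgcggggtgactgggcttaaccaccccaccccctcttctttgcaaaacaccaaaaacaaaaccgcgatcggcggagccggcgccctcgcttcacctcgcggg
Flt4: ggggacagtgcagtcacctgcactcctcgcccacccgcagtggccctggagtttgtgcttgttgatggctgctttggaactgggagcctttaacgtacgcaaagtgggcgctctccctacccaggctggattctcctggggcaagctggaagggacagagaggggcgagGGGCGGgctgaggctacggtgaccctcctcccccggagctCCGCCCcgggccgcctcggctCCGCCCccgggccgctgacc
Vegfa: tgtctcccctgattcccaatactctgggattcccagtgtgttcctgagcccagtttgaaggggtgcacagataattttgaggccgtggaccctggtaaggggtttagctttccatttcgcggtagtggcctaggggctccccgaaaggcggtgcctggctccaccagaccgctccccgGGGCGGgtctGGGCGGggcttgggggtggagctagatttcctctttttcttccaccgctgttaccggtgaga
Vegfb: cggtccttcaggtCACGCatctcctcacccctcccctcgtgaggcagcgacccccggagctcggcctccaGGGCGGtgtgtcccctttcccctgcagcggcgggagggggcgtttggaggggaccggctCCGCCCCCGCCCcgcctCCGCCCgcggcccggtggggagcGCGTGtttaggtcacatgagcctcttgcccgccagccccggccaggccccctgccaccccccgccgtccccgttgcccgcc

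The Figf window had 2 CpG dinucleotides, 42.4% G and C and no GC box, and held TATAAA from -73 to -68. In the other 4 windows shown there were 2 (Vegfc), 3 (Flt4), 2 (Vegfa) and 4 (Vegfb) GC boxes, and 30, 16, 11 and 26 CpG. No ACGTG was found in any of the 10 members' windows, and among those printed GCGTG was found in Vegfb only, at 2 places, and TATAAA in Figf only. Of the windows not printed, that of Flt1 held TATAAA from -31 to -26, and those of Pgf, Flt1, Kdr, Nrp1 and Nrp2 held GCGTG. Over all 32851 RefSeq windows of this length, the median was 6 CpG and 52.4% G and C, and GGGCGG occurred in 32.74%, ACGTG in 16.57%, GCGTG in 28.16%, TATAAA in 12.37% and TGANTCA in 6.75%. These are matches of letters and were not tested as sites.

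The genes lie on GRCm38.p6 at chr17:46016993-46032377 (Vegfa), chr19:6982472-6987651 (Vegfb), chr8:54077532-54186454 (Vegfc), chrX:164373522-164402650 (Figf), chr12:85166637-85177785 (Pgf), chr5:147561604-147726438 (Flt1), chr5:75932827-75979072 (Kdr), chr11:49609679-49652739 (Flt4), chr8:128358591-128505476 (Nrp1) and chr1:62703317-62818692 (Nrp2). Counts are of reads on their exons, whose joined length ran from 1281 bases (Vegfb) to 10961 bases (Flt1). The microRNA gene Mir1903 overlaps exons of Nrp1 on the same strand, and its reads could not be told apart from those of Nrp1.

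Values below are counts, or CPM, counts relative to the library's size, scaled over all 52 libraries. Library totals were 14816218 to 28084979 counts, so that a floor of 3 counts corresponded to 0.103 to 0.208 CPM. Agreement with the other libraries of its clone (median Pearson r over genes) was lowest for control AB library 1 at 0.966 and ciliated Wdr60 library 2 at 0.969. Leaving out either of them, or control A4 library 1, changed no call given below. As checks of the epithelial label, Pax2, Pax8 and Cdh16 were at 73.6 CPM or more in every library, although the collecting duct water channel Aqp2 had at most 1 count. Cdh1 and Epcam, adhesion proteins of epithelia, were at least 241 and 182 CPM in 11 clones but 14.4 and 13.5 CPM in the ciliated control G7 and 4.22 and 2.86 CPM in the nonciliated control 2. Of 16 endothelial markers, Egfl7 alone reached 1 CPM in every library (5.60 to 22.4), the summed list ranged from 6.56 to 18.8 CPM in ciliated controls, 8.73 to 19.6 in ciliated mutants, 7.86 to 22.6 in nonciliated controls and 10.9 to 20.2 in nonciliated mutants, Pecam1 had at most 7 counts, Cdh5 at most 5, and Cldn5, Erg and Lyve1 were at 0 in all libraries. In bulk RNA, fewer cells of a type and less RNA per cell cannot be told apart.

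Per kilobase of exon, the scale on which levels of different genes can be set side by side, the family was led by the ligand Vegfb and the co-receptor Nrp1. Vegfb ranked first in 8 clones and second in 5, Nrp1 first in 5 and second in 8, Vegfa was the third in all 13 clones, and Nrp2 had rank 4 in 11. Mean levels over control clones (n = 4 clones a state) were 85.9 ± 34.7 CPM per kilobase for Vegfb, 40.4 ± 22.1 for Nrp1, 27.2 ± 17.7 for Vegfa and 6.70 ± 3.27 for Nrp2 in ciliated cells. In nonciliated controls they were 44.6 ± 9.40, 68.9 ± 17.0, 18.1 ± 7.40 and 6.12 ± 2.94 CPM per kilobase. Flt4, Figf and Flt1 lay lower, at 0.772 ± 0.891, 0.772 ± 0.506 and 0.212 ± 0.130 CPM per kilobase in ciliated controls and 1.93 ± 2.10, 0.449 ± 0.110 and 0.703 ± 0.316 in nonciliated controls, and their order changed from clone to clone. Vegfb exceeded Vegfa per kilobase in every clone, by a ratio that ran from 1.37 in the control AB to 15.9 in the control G7, and Nrp1 exceeded Nrp2 by a ratio of 4.55 (control A4) to 22.7 (nonciliated control 2).

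**Figure D1:**
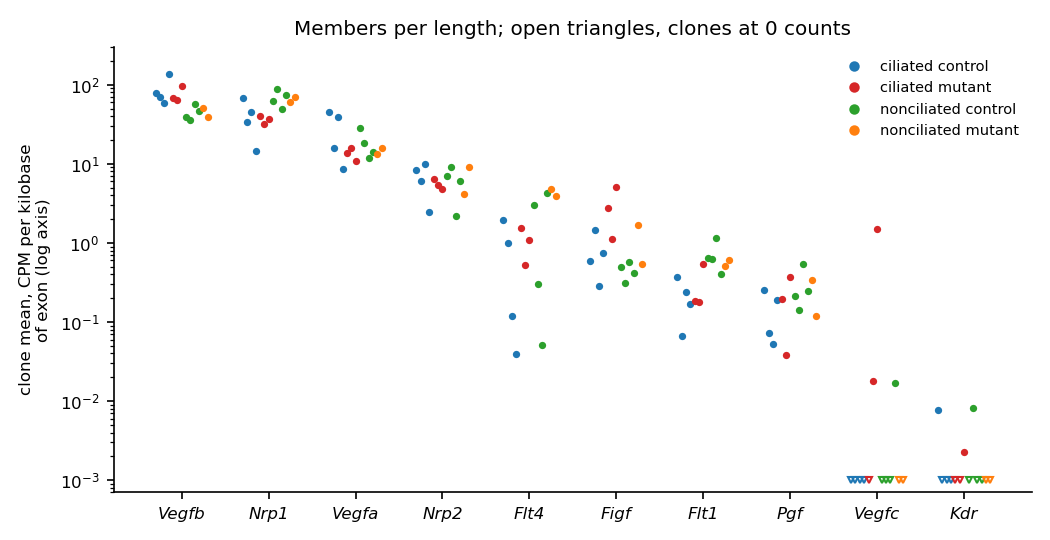
Clone means of the 10 members in CPM per kilobase of exon on a log axis, 1 point per clone, coloured by state and genotype; open triangles stand for clones with 0 counts in all 4 libraries. Vegfb, Nrp1 and Vegfa lead in all 13 clones, and Vegfc and Kdr are at 0 in most.

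At the other end, 3 members were near or under the floor. Kdr, the main signalling receptor of VEGF-A, had 0 counts in 49 of 52 libraries and 3, 3 and 1 counts in a library of control D8, nonciliated control 1 and the ciliated Wdr34 clone 3. Pgf, placental growth factor, had 0 to 13 counts in ciliated and 1 to 25 counts in nonciliated libraries, and its highest clone mean was 0.856 ± 0.288 CPM (SD, n = 4 libraries) in the nonciliated control 2. Vegfc, a ligand of lymphatic growth, had 0 counts in 43 libraries. At this depth a Kdr signal was thus not detectable above 3 counts in any clone.

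Vegfc was detected above the floor in a lone clone, the ciliated Wdr34 clone 3. Its 4 libraries had 52, 68, 68 and 84 counts (3.62 ± 0.375 CPM), against 0 to 1 count in the libraries of clone 1, 0 to 2 in those of the nonciliated control 3 and 0 in all others. Set against the highest floor of any library, 3 counts or 0.208 CPM, the level in clone 3 was at least 17.4-fold higher. Since all ciliated controls were at 0 and the gene passed the expression filter through clone 3 alone, no test is given. The fibroblast marker Dcn was also high in this clone, at 29.2 ± 3.61 CPM against at most 1.01 CPM in the other 12 clone means. Of the other 7 fibroblast and mural markers Col1a1 was 1.17 CPM in clone 3, inside the 0.343 to 2.25 CPM of the other ciliated clones, and the remaining 6, led by Pdgfra (0.786 CPM) and Col3a1 (0.405 CPM), summed to 1.40 CPM against 0.0121 to 0.111 in the other ciliated and 0.0482 to 1.15 in the nonciliated clones. Of 14 epithelial markers, 7 were lower in clone 3 than in all 5 ciliated clones other than G7, 2 were higher and 5 lay within their range. Those lower included Cdh1 (301 CPM against 407 to 649), Epcam (287 against 639 to 836) and the keratin genes Krt8 (76.8 against 372 to 951) and Krt18 (148 against 529.5 to 1239), and those higher were Cdh16 (589.6 against 343 to 506) and Gata3. The sum of the 14 epithelial markers was 1924 CPM in clone 3, 1893 in G7 and 3323 to 4372 in the other 5 ciliated clones. The part of these markers in the values of Vegfc, and of Figf and Flt1 below, was not tested.

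Figf, which encodes VEGF-D, had clone means above all 4 controls of their state in 3 of the 5 mutant clones and above 3 of the 4 controls in the other two. The ciliated Wdr34 clone 3 had 153, 169, 225 and 232 counts (10.4 ± 1.38 CPM, n = 4 libraries), the ciliated Wdr60 clone 98, 137, 83 and 99 counts (5.60 ± 1.42 CPM) and the ciliated Wdr34 clone 1 42, 41, 41 and 32 counts (2.27 ± 0.355 CPM). Ciliated controls had 55, 52, 67 and 61 counts in H12 (3.03 ± 0.328 CPM), 26, 24, 30 and 36 in G7 (1.52 ± 0.252), 14, 17, 27 and 18 in D8 (1.19 ± 0.309) and 14, 6, 10 and 12 in A4 (0.588 ± 0.158). Clone 3 and the Wdr60 clone thus lay above every control library, whereas clone 1 lay between H12 and G7, and its libraries overlapped those of G7. In nonciliated cells the Wdr60 clone had 64, 43, 61 and 56 counts (3.42 ± 0.704 CPM) and the Wdr34 clone 19, 23, 19 and 12 (1.10 ± 0.232). The 4 nonciliated controls had 10 to 24 counts and clone means of 0.643 (control 1), 0.857 (control 3), 1.005 (AB) and 1.17 CPM (control 2). The nonciliated Wdr60 clone lay above every control library, and the Wdr34 clone lay among the controls.

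In order, the Figf clone means ran from the ciliated Wdr34 clone 3 and Wdr60 clones over the nonciliated Wdr60 clone, H12 and the ciliated Wdr34 clone 1 down to A4. The libraries of the nonciliated Wdr60 clone and of H12 overlapped, as did all neighbours from clone 1 downwards in this order, while the libraries of the first 3 clones did not overlap each other.

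**Figure D2:**
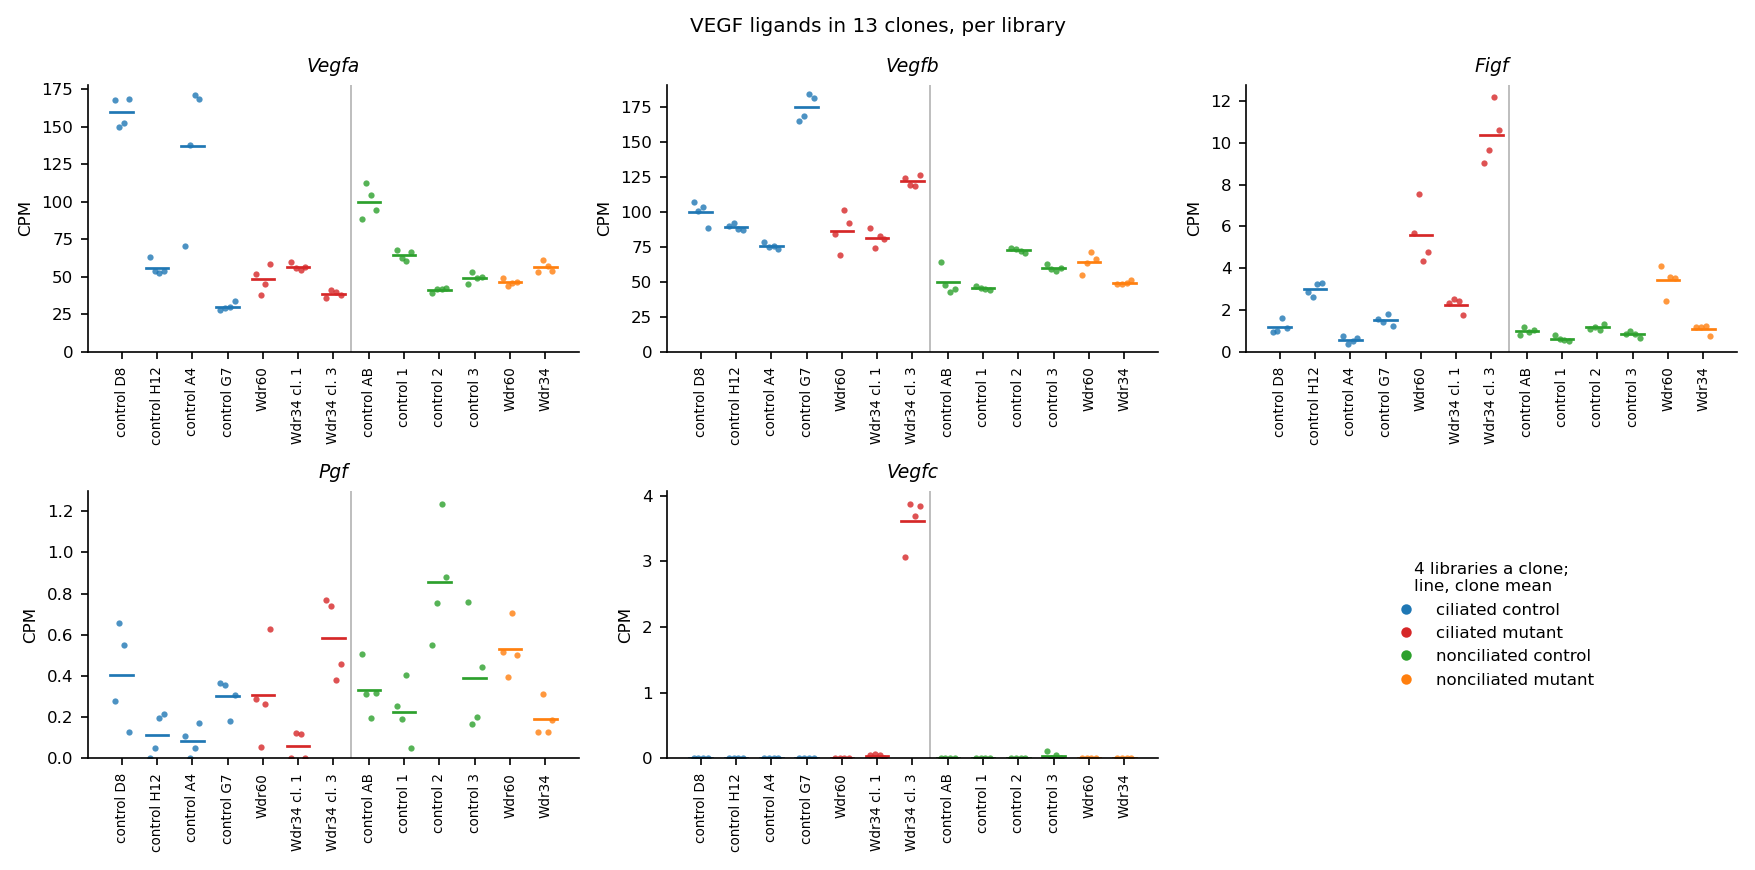
CPM of the 5 ligand genes in each library (points, 4 a clone) with clone means (lines), for ciliated clones on the left and nonciliated clones on the right of each panel. Figf is highest in the ciliated Wdr34 clone 3 (10.4 CPM) and Wdr60 clone (5.60 CPM), Vegfc is above the floor in clone 3 alone, and Vegfa is widest among the ciliated controls.

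Tests across all genes took the libraries as samples, as the study did, and called a gene whose BH-adjusted p was under 0.05 and whose log2 fold change was 1 or more in either direction (edgeR quasi-likelihood F test, 2-sided). Since libraries of a clone are technical replicates, these p-values measure the spread between libraries of few clones, and an exact permutation test over clone means stands beside them. In ciliated mutants against controls, 1 of the 7 members that passed the expression filter was called, against 0.644% of all 11950 genes tested. This was Figf, with a log2 fold change of 1.92 (SE 0.334, adjusted p = 1.65e-03, edgeR) where the 3 mutant clones averaged 6.08 ± 4.07 CPM and the 4 control clones 1.58 ± 1.04 CPM (SD over clones). In nonciliated mutants against controls 1 of 7 members was called, against 3.06% of 12012 genes, and this was again Figf, with a log2 fold change of 1.282 (SE 0.253, adjusted p = 1.64e-03, edgeR) and 2.26 ± 1.64 CPM (n = 2 clones) against 0.920 ± 0.226 (n = 4 clones).

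The Figf values differed between the mutant clones. Against the controls of their state, Figf was called in the ciliated Wdr34 clone 3 (log2 fold change 2.68, SE 0.377, edgeR adjusted p = 3.57e-05), the ciliated Wdr60 clone (1.81, SE 0.397, 8.93e-03) and the nonciliated Wdr60 clone (1.88, SE 0.211, 7.91e-06). It was not called in the ciliated Wdr34 clone 1 (0.50, SE 0.433, 0.602) or the nonciliated Wdr34 clone (0.26, SE 0.243, 0.507). With the clone as a block (voomLmFit) the adjusted p was 7.89e-04 in clone 3 but 0.372 and 0.106 in the ciliated and nonciliated Wdr60 clones, and on clone sums (edgeR) it was 0.98, 0.99997 and 0.99988. The nonciliated pooled call was lost without the Wdr60 clone, where the fold change was 0.26 with an adjusted p of 0.507. The call in the ciliated Wdr60 clone was lost when replicate number 1, 2 or 4 was left out of all clones (edgeR adjusted p = 0.0668, 0.0814 and 0.0532).

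Over clone means, Figf differed by 1.83 on the log2 scale in ciliated cells (exact 2-sided permutation p = 0.0857, smallest possible 0.0286 with 35 splits) and by 1.02 in nonciliated cells (exact p = 0.133, smallest possible 0.0667 with 15 splits), and each adjusted p was 1. In neither state did mutant and control clone means fail to overlap for any member, against 1.95% of all genes in ciliated and 12.9% in nonciliated cells. When the 4 libraries of each clone were summed, no gene was called in either comparison, and the adjusted p of Figf was 0.99979 in ciliated and 0.976 in nonciliated cells (edgeR). On those sums 148 of 13243 genes (ciliated) and 582 of 13406 (nonciliated) had an unadjusted p under 0.05, Figf among them at 0.0216 and 0.0443. With the clone as a block (voomLmFit) 7 and 9 genes were called, and with DESeq2 on the libraries 129 and 416. Figf lost its call in both states with the clone as a block (adjusted p = 0.482 and 0.587).

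Vegfa, the main vessel growth factor, was not called by edgeR in either state with all 4 control clones. The study used DESeq2 and, by its text, 3 control clones for ciliated cells. It reported lower Vegfa in mutant than in control cells in the ciliated state only. In nonciliated cells the libraries of the controls ranged from 39.2 to 113 CPM (median 57.0) and those of the mutants from 43.7 to 61.4 CPM (median 51.4). Clone means were 100.2 CPM (AB), 64.7 (control 1), 49.4 (control 3) and 41.3 (control 2) against 56.6 in the Wdr34 and 46.3 in the Wdr60 clone, so that both mutants lay inside the control range. The log2 fold change was -0.31 (SE 0.182, edgeR adjusted p = 0.25). In ciliated cells it was -0.999 (SE 0.286, adjusted p = 0.0490), just short of the limit on the fold change, and mutant clone means of 38.7 to 56.6 CPM lay between those of G7 (30.2 CPM) and H12 (55.9 CPM) or just above H12. Vegfa passed both limits with DESeq2 (-1.004, adjusted p = 0.0106) and with edgeR without H12 (-1.18, 0.0117) or without G7 (-1.29, 4.95e-04). Other leave-outs of a clone, replicate or library took it to -0.639, with an edgeR adjusted p of up to 0.272. It was not called on clone sums (edgeR adjusted p = 0.99979) or with the clone as a block (voomLmFit, 0.99993). Over clone means the exact permutation p was 0.371 in ciliated and 0.667 in nonciliated cells. For single clones edgeR gave -0.99 (adjusted p = 0.264) in the ciliated Wdr60 clone, -0.76 (0.472) and -1.32 (0.0759) in the Wdr34 clones 1 and 3, and -0.47 (0.238) and -0.17 (0.70) in the nonciliated Wdr60 and Wdr34 clones. In clone 3 Vegfa was called by DESeq2 (-1.32, 0.0210) and by edgeR without G7 (-1.60, 1.99e-03), and in the ciliated Wdr60 clone by edgeR without G7 (-1.28, 0.0316). Other leave-outs took the value to -0.971 in clone 3 and -0.625 in the Wdr60 clone (edgeR adjusted p up to 0.193 and 0.510).

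Vegfb, a ligand of Flt1, did not pass the threshold between mutants and controls in either state. Its libraries ranged from 73.8 to 184 CPM (median 91.1) in ciliated controls and 69.3 to 127 (median 90.3) in ciliated mutants, and from 43.2 to 74.6 (median 58.8) and 48.4 to 71.8 (median 53.1) in nonciliated controls and mutants. The ranges of mutants and controls overlapped within each state, while those of the states met only at their edges. Log2 fold changes of mutants were -0.19 (SE 0.158, edgeR adjusted p = 0.544) in ciliated and -0.01 (SE 0.119, 0.965) in nonciliated cells. Pgf passed the filter in the 2 nonciliated single-clone comparisons and was not called, with -1.20 (SE 0.604, edgeR adjusted p = 0.194) in the Wdr34 clone, where it had 2, 6, 2 and 3 counts, and 0.22 (SE 0.510, 0.819) in the Wdr60 clone, where it had 8, 7, 12 and 8.

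Flt4, the receptor of VEGF-C and VEGF-D, varied most of all members among the controls. Ciliated controls had 198, 195, 214 and 161 counts in D8 (12.2 ± 1.58 CPM), 86, 150, 119 and 123 in H12 (6.15 ± 1.31), 24, 12, 8 and 9 in A4 (0.751 ± 0.386) and 3, 3, 4 and 11 in G7 (0.245 ± 0.0920). Nonciliated controls had 519, 496, 447 and 565 counts in control 3 (27.1 ± 3.27 CPM), 242, 381, 400 and 394 in AB (19.0 ± 2.48), 43, 20, 31 and 32 in control 1 (1.87 ± 0.629) and 7, 6, 9 and 2 in control 2 (0.323 ± 0.151). The highest clone was 49.6 times the lowest in ciliated and 83.9 times in nonciliated controls, and the libraries of the 4 control clones of a state did not overlap. Mutant clone means all lay within the range of ciliated controls, at 9.54 ± 0.920 (Wdr60), 6.73 ± 0.838 (Wdr34 clone 3) and 3.27 ± 0.531 CPM (clone 1). In nonciliated cells the Wdr60 clone reached 30.3 ± 3.13 CPM and the Wdr34 clone 24.5 ± 1.58 CPM, with libraries of both overlapping those of control 3.

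**Figure D3:**
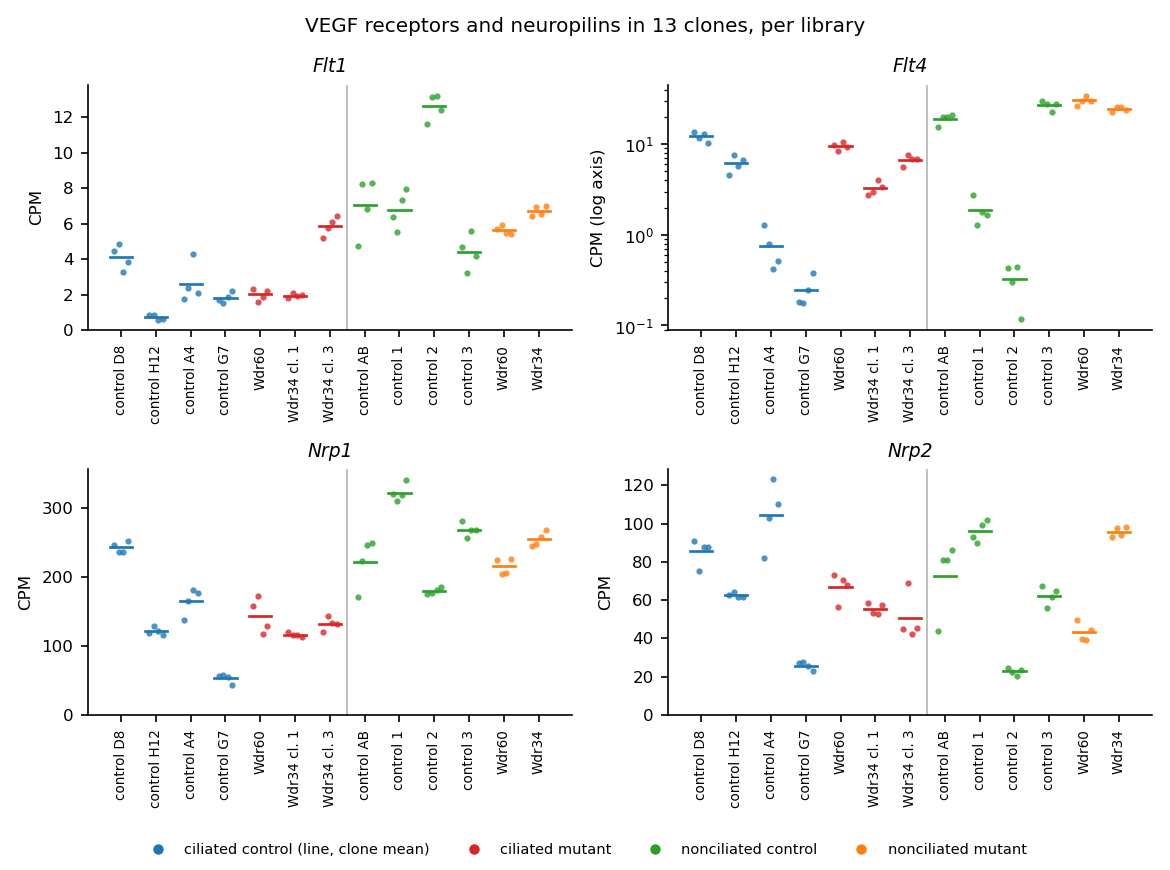
CPM of Flt1, Flt4 (log axis), Nrp1 and Nrp2 in each library (points, 4 a clone) with clone means (lines); ciliated clones stand left and nonciliated clones right of the grey line. Flt4 falls to 0.245 CPM in control G7 and 0.323 CPM in nonciliated control 2, which are also the lowest controls of their state for Nrp1 and Nrp2.

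For Flt4 the log2 fold change of mutants was 0.43 (SE 0.563, edgeR adjusted p = 0.725) in ciliated and 1.18 (SE 0.664, 0.233) in nonciliated cells. The difference of clone means was 1.49 and 2.61 on the log2 scale, and the exact permutation p was 0.371 and 0.20. Flt1, the receptor of VEGF-A, VEGF-B and placental growth factor, gave 0.50 (SE 0.322, adjusted p = 0.422) and -0.32 (SE 0.221, 0.337). Among single clones Flt1 was called in the ciliated Wdr34 clone 3, whose libraries had 5.20 to 6.45 CPM (88 to 141 counts), above the 0.586 to 4.85 CPM of all 16 ciliated control libraries. There the log2 fold change was 1.32 (SE 0.412, edgeR adjusted p = 0.0271), and the call was lost when any replicate number was left out (adjusted p = 0.0787 to 0.109) and with the clone as a block (voomLmFit, 0.233).

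Over the 5 single-clone comparisons the counts of members called were 1 of 7 in the ciliated Wdr60 clone (background 1.93% of all genes tested), 0 of 7 in the Wdr34 clone 1 (0.679%), 2 of 7 in the Wdr34 clone 3 when Vegfc is set aside (5.8%), 1 of 8 in the nonciliated Wdr60 clone (3.41%) and 0 of 8 in the nonciliated Wdr34 clone (2.24%). The 2 in clone 3 were Figf and Flt1, and Vegfc, the 1 further member past the filter there, entered through clone 3 itself. In the 2 comparisons with 0 called, 0 members had an unadjusted p under 0.05 (edgeR), and DESeq2 and voomLmFit also called 0.

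The neuropilins were among the most abundant members and did not pass the threshold in mutants. Nrp1 libraries ranged from 43.6 to 252 CPM (median 133) in ciliated controls, 113 to 172 (median 124) in ciliated mutants, 170 to 341 (median 252) in nonciliated controls and 205 to 268 (median 235) in nonciliated mutants. Its log2 fold changes were -0.16 (SE 0.223, edgeR adjusted p = 0.748) in ciliated and -0.07 (SE 0.119, 0.709) in nonciliated cells. Nrp2 ranged from 23.0 to 123 CPM (median 69.7) in ciliated controls, 42.5 to 73.1 (median 56.8) in ciliated mutants, 20.5 to 102 (median 66.1) in nonciliated controls and 39.1 to 98.0 (median 71.2) in nonciliated mutants, with log2 fold changes of -0.27 (SE 0.215, 0.523) and 0.13 (SE 0.290, 0.791). The nonciliated mutants stood apart from each other, at 95.5 ± 2.57 CPM of Nrp2 in the Wdr34 clone and 43.3 ± 4.86 CPM in the Wdr60 clone (n = 4 libraries each), both inside the range of control clones.

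Flt4 had the widest spread among control clones. By an edgeR F test on 3 clone coefficients, which sets clones against technical libraries alone, 7 of 7 members differed among ciliated controls (adjusted p under 0.05) and 8 of 8 among nonciliated controls, but so did 85.4% and 80.5% of all genes, so that these counts say nothing particular of the members. The standard deviation of log2 CPM between control clones was 2.41 (ciliated) and 2.85 (nonciliated) for Flt4, against 0.398 and 0.391 between libraries of a clone. For Vegfa it was 1.11 and 0.55 against 0.316 and 0.101, and for Figf 0.90 and 0.33 against 0.270 and 0.205.

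**Figure D4:**
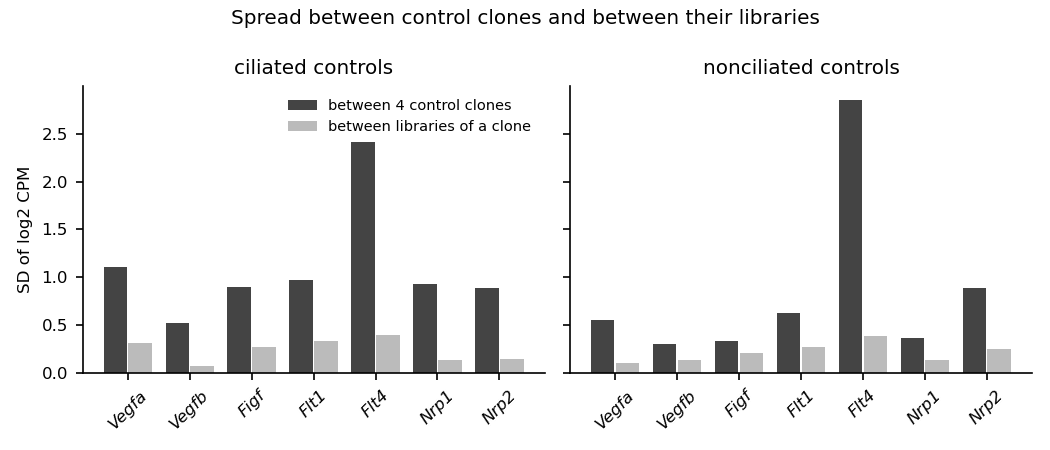
Standard deviation of log2 CPM between the 4 control clones (dark bars) and between the libraries of a clone (light bars) for the 7 members tested in both states. The dark bar is the taller for each member in each state, and it is tallest for Flt4, at 2.41 in ciliated and 2.85 in nonciliated controls.

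The same pair of control clones stood at the ends of several members. G7 in ciliated and control 2 in nonciliated cells had the lowest Vegfa (30.2 and 41.3 CPM), Flt4 (0.245 and 0.323), Nrp1 (53.0 and 179.7) and Nrp2 (25.7 and 22.9) of their state's controls and the highest Vegfb (175 and 72.7 CPM). The next controls had 55.9 and 49.4 CPM of Vegfa, 121 and 222 of Nrp1, 62.5 and 62.4 of Nrp2 and, for Vegfb, 100.05 and 60.2. These are the clones low in Cdh1 and Epcam. Flt1 did not share the pattern, since control 2 was the highest nonciliated control (12.6 CPM) while G7, at 1.83 CPM, lay between H12 and A4. The part of what sets these clones apart was not tested.

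Across the 13 clones, with log2 CPM centred within each state, Nrp1 and Nrp2 had a Pearson r of 0.79 (Spearman 0.84), Vegfa had 0.73 with Nrp1 and 0.71 with Nrp2, and Vegfb had -0.84 with Nrp2, -0.69 with Nrp1 and -0.62 with Vegfa. Each pair was also taken without the 2 clones farthest from the median of its first-named gene, which can differ between pairs. Nrp1 and Nrp2 then gave 0.84 and Vegfb and Nrp2 gave -0.67, whereas Vegfb and Nrp1 gave -0.10 and Flt4 and Nrp2 went from 0.48 to -0.51. These 21 values describe clones that share their scaling and, within a state, their processing. By the same measure over 11709 genes, those most like each member were Mllt11 (r = 0.95), Zbtb10 and Ddx19b for Vegfa, Rad51b (0.94), Snx18 and Tpp1 for Vegfb, and Hadha (0.92), 1700096K18Rik and Msra for Figf. For the receptors they were Ppm1b (0.89), Qrsl1 and Wsb2 for Flt1 and Slit2 (0.95), Gm13247 and Grhl3 for Flt4, and for the co-receptors Atr (0.97), Ctgf and Epha2 for Nrp1 and Atg16l1 (0.96), Nif3l1 and Ddx18 for Nrp2.

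Between states, the receptor Flt1 was called lower in ciliated than in nonciliated controls, and no other member was called. Pgf, Vegfc and Kdr did not pass the expression filter in the comparisons of states. Flt1 libraries ranged from 0.586 to 4.85 CPM (median 1.996) in ciliated and 3.19 to 13.2 CPM (median 7.07) in nonciliated controls. Clone means were 0.735 (H12), 1.83 (G7), 2.63 (A4) and 4.11 CPM (D8) against 4.41 (control 3), 6.78 (control 1), 7.03 (AB) and 12.6 CPM (control 2), so that the clone means of the states did not overlap although some of their libraries did. Flt1 was the 1 of 7 members called, against 10.3% of 11856 genes, with a log2 fold change of -1.73 in ciliated against nonciliated controls (SE 0.275, edgeR adjusted p = 2.45e-06). Vegfb clone means were 75.7 to 175 CPM in ciliated and 45.5 to 72.7 CPM in nonciliated controls and did not overlap either, with 0.95 (SE 0.140, adjusted p = 7.42e-07), under the limit on the fold change. Clone means of 2 members did not overlap, against 23.2% of all genes, and their exact permutation p was 0.0286, the smallest that 70 splits allow (adjusted p = 0.123). With clone libraries summed the adjusted p was 0.0629 for Flt1 and 0.0580 for Vegfb, and with the clone as a block 2.60e-03 and 4.40e-04 (voomLmFit).

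Nrp1 was lower in ciliated controls by -0.77 (SE 0.209, edgeR adjusted p = 2.05e-03) and Figf higher by 0.78 (SE 0.244, 6.28e-03), both within the limit of 1. Vegfa gave 0.58 (SE 0.268, 0.0595), Nrp2 0.13 (SE 0.256, 0.670) and Flt4 -1.32 (SE 0.703, 0.103). Flt4 was called once control 2 (-1.73, 0.0197) or D8 (-2.33, 0.0133) was left out, and Vegfb crossed the limit of 1 without control 2 (1.09), H12 (1.05) or A4 (1.09). Other leave-outs took Flt4 to -0.559 (edgeR adjusted p up to 0.549) and Vegfb to 0.635. Nrp1 was called without D8 (-1.13) and Figf without A4 (1.05). Other leave-outs took Nrp1 to -0.484 and Figf to 0.267 (edgeR adjusted p up to 0.0250 and 0.270). On clone sums the adjusted p was 0.222 for Nrp1 and 0.321 for Figf (edgeR), and with the clone as a block 0.00808 and 0.348 (voomLmFit). Without both clones low in Cdh1 and Epcam, an alternative chosen after the data were seen, Flt1 gave -1.30 (5.83e-04) and Flt4 -1.35 (0.0405), and both were called. Of the 5 leukocyte markers found, Csf1r moved with the state, with clone means of 15.9 to 49.2 CPM in nonciliated and 169 to 297 CPM in ciliated clones, while Cd3e was at 0 in all libraries and Ptprc had at most 24 counts. The other 4 markers summed to 0.948 to 4.33 CPM in ciliated and 2.43 to 5.45 CPM in nonciliated clones, and Cd68 went the other way, at 2.28 against 3.49 CPM in controls (-0.62, edgeR adjusted p = 0.0118, not called). The fibroblast marker Col1a1 was called lower in ciliated controls, at 1.47 against 4.07 CPM (-1.46, SE 0.267, 1.97e-05), as the 1 marker of its list that passed the filter. Of 9 collecting duct and kidney epithelial markers tested, 1 was called higher in ciliated controls, beside 10.3% of all genes called, and the list median was 0.41. Clone means of Cdh16 were 343 to 841 CPM in ciliated and 211 to 266 CPM in nonciliated controls. The part of these markers in the results between states was not tested.

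In the Wdr60 clones, the mutant genotype named in both states, 2 of 7 members were called between states, against 15.1% of genes. Flt1 had 2.32, 1.60, 1.89 and 2.23 CPM in ciliated against 5.72, 5.90, 5.48 and 5.42 CPM in nonciliated libraries (log2 fold change -1.46, SE 0.166, edgeR adjusted p = 7.95e-05). Flt4 had 9.81, 8.40, 10.6 and 9.35 CPM against 26.6, 30.3, 34.3 and 30.1 CPM (-1.65, SE 0.128, 7.82e-06). For neither gene did the libraries of the states overlap, and with 1 clone a state the comparison is of these clones. Below the limit of 1 were Nrp2 (0.65, 1.55e-03), Figf (0.73, 0.0221), Vegfb (0.45, 0.0208) and Nrp1 (-0.56, 5.18e-03), and Vegfa gave 0.08 (0.643).

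**Figure D5:**
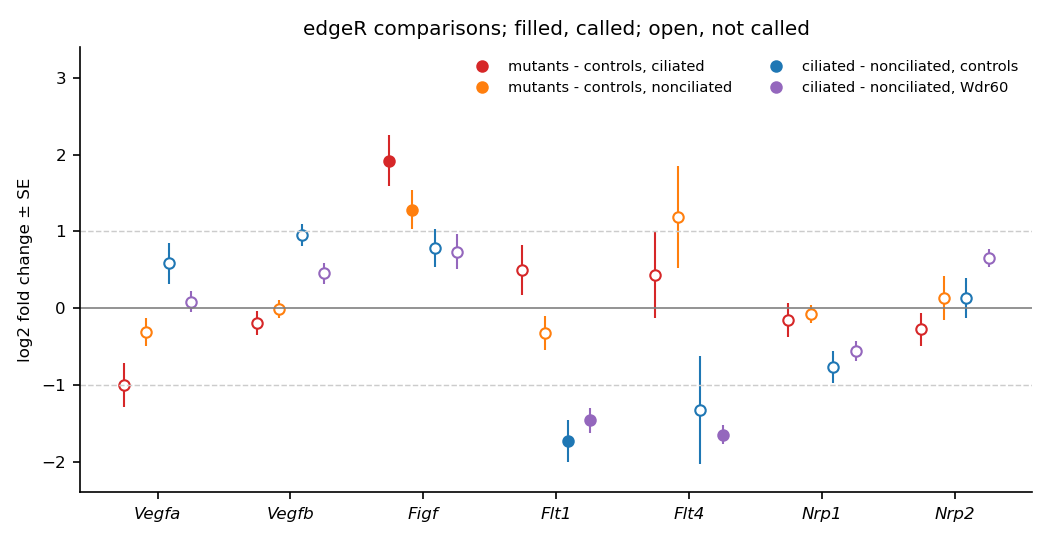
Log2 fold changes of 7 members with standard errors (bars) from edgeR for mutants against controls in each state and for ciliated against nonciliated cells in controls and in Wdr60 clones; filled points were called and dashed lines mark the limit of 1. Figf is called in both mutant comparisons (1.92 and 1.282), Flt1 in both state comparisons (-1.73 and -1.46) and Flt4 in the Wdr60 clones (-1.65).

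The mutant effect itself was compared between states by an interaction term over all 52 libraries, in which 0 of 8 members were called, against 1.19% of 12544 genes, and 0 had an unadjusted p under 0.05. DESeq2 and voomLmFit called 0 members as well. The difference of log2 fold changes, ciliated minus nonciliated, was -0.68 for Vegfa (SE 0.359, edgeR adjusted p = 0.379), 0.65 for Figf (SE 0.451, 0.539), 0.82 for Flt1 (SE 0.417, 0.361) and -0.75 for Flt4 (SE 0.904, 0.764). Leaving out a clone, replicate or library moved these values. They ran from -0.988 to -0.321 for Vegfa, 0.0196 to 1.67 for Figf, 0.0957 to 1.24 for Flt1 and -1.52 to 0.260 for Flt4. The other 4 members tested, Vegfb, Pgf, Nrp1 and Nrp2, gave -0.40 (Nrp2) to 0.82 (Pgf), with adjusted p of 0.638 to 0.932. A p above the threshold does not show that the effects were alike.

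Other genes of the pathway were followed in lists. In ciliated mutants 0 of 11 tested class 3 semaphorins and plexins, 0 of 5 genes that process VEGF-C and VEGF-D, 0 of 7 oxygen sensing genes upstream of Vegfa and 0 of 27 signalling genes below the receptors were called, with median log2 fold changes of -0.08, -0.14, -0.08 and 0.00 beside -0.01 over all genes. Of 10 tested genes among other angiogenic factors and receptors 1 was called, where 0.644% of all genes were. This was Fgf1, a fibroblast growth factor, with 55.6 CPM in mutants against 26.1 in controls (1.08, SE 0.285, edgeR adjusted p = 0.0342). The call of Fgf1 was lost on clone sums (edgeR). Its mutant clone means were 105 (Wdr60), 35.0 (Wdr34 clone 1) and 27.1 CPM (clone 3), and the latter pair lay inside the range of controls (12.9 to 39.4 CPM).

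In nonciliated mutants 3.06% of all genes were called. Of 11 tested semaphorins and plexins, Sema3g set aside, 1 was called lower, the plexin gene Plxnd1. Plxnd1 gave -2.06 (SE 0.537, edgeR adjusted p = 0.0115). Of 10 other angiogenic factors 1 was called, the ligand gene Pdgfd (-1.05, SE 0.246, edgeR adjusted p = 5.67e-03). For Sema3g no fold change or test is given, since only controls 2 and 3 had clone means above the floor of 3 counts. For Sema3g the mutants had 0.156 and 0.0922 CPM, and of the controls 2 had 0.100 (AB) and 0.029 (control 1) and 2 had 2.18 (control 3) and 6.997 CPM (control 2). Plxnd1 was 18.7 and 15.1 CPM in mutants and 14.2 (AB), 34.4, 43.9 and 189 CPM (control 2) in controls. Pdgfd was 3.06 and 2.24 CPM in mutants and 2.61 (AB), 4.88, 6.87 and 7.66 CPM (control 2) in controls. In all 3 genes mutants overlapped the controls, and the highest control was the clone low in Cdh1 and Epcam. The processing, oxygen sensing and signalling lists had 0 of 5, 0 of 8 and 0 of 27 called. On clone sums every gene named in this and the preceding paragraph, Sema3g set aside, had an adjusted p of 0.976 or more (edgeR).

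Between control states, where 10.3% of all genes were called, the processing list held 2 called of 5, both lower in ciliated cells: Ccbe1, a cofactor of VEGF-C cleavage (45.1 against 111 CPM, -1.30, SE 0.499, edgeR adjusted p = 0.0242), and Plau, the urokinase protease (64.9 against 207 CPM, -1.67, SE 0.484, 3.52e-03). Their lowest controls were G7 (2.16 and 6.03 CPM) and control 2 (18.3 and 15.6 CPM). In the signalling list 1 of 27 was called, a share below that of all genes. This was Sphk1, a sphingosine kinase, at 23.0 against 7.86 CPM (1.55, SE 0.183, 1.13e-08), and clone means of 12.2 to 32.9 and 5.44 to 11.7 CPM did not overlap. Among other angiogenic factors 4 of 10 were called, Fgf1 higher (1.05) and Angptl4 (-1.62), Angpt2 (-1.13) and the hepatocyte growth factor receptor gene Met (-1.07) lower, and 0 of 7 oxygen sensing genes were. On clone sums the adjusted p was 0.0258 for Sphk1 and 0.0694 to 0.387 for the others named here (edgeR).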

How the data were processed

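RNA from 13 clones was sequenced as 52 libraries. The authors aligned reads to GRCm38/mm10 with Rsubread and deposited raw counts per gene from featureCounts (R 3.4.4), which they tested with DESeq2 1.18.1. The setting for strand is not given in the sources used here. From these counts, libraries were scaled by TMM and tested with edgeR 4.0.16 (filterByExpr, quasi-likelihood F test, BH adjustment over all genes) under R 4.3.3, with libraries as samples. CPM were scaled over all libraries, and log2 CPM used a prior count of 2. Alternatives were DESeq2 1.42.0, voomLmFit with the clone as a block (edgeR with limma 3.58.1), clone sums, other filters, and leaving out each clone or replicate. Exact permutation tests ran over clone means. Code was tested on simulated counts. Members past the expression filter were followed in each comparison, the others by their counts, and list genes were named where called. Members and lists were chosen with earlier results of these data known. SDs give the spread over libraries or clones as stated, SEs come from the edgeR fit to libraries, and floors cover counting error only. Promoter windows and gene positions came from RefSeq (GRCm38.p6), in which all 10 members matched. Protein sequences were not used here.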

Additional observations from a re-analysis of the deposited data

Results flagged for a closer look

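Single libraries far from the other 3 of their clone were looked for in 105 groups of 4, of which chance alone would mark about 1 in 20, and 4 were found. Vegfa was 63.2 CPM in library 1 of control H12 against 52.7 to 53.9 CPM in the others, and Figf was 0.750 CPM in library 4 of the nonciliated Wdr34 clone against 1.20 to 1.23 CPM. Nrp2 was 43.7 CPM in library 1 of control AB against 80.9 to 86.0 CPM, and 69.1 CPM in library 2 of the ciliated Wdr34 clone 3 against 42.5 to 45.2 CPM. Library 1 of AB was also the library that agreed least with its own clone.

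For Flt1 the mean of mutant clones stood 0.531 above that of control clones on the log2 scale in ciliated cells and 0.201 below it (-0.201) in nonciliated cells. In ciliated cells this rested on the Wdr34 clone 3 (5.87 CPM), since the other two mutant clones had 1.95 and 2.01 CPM against a control mean of 2.33 CPM, and the log2 fold change was -0.229 without clone 3. The difference was tested as the interaction of state and genotype and did not pass the threshold (0.82, edgeR adjusted p = 0.361).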

How the results depend on the processing

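For single members, Vegfc set aside, 536 values kept their direction and call when a clone, replicate or library was left out, 17 changed sign, 12 gained and 10 lost the call. Under other settings 430 kept both, 3 changed sign, 10 gained and 14 lost the call. Members called in ciliated mutants were 1, but 2 with DESeq2 or with no fold limit, where Vegfa was called beside Figf. A filter of at least 1 count also gave 2, but the second was a member that the main filter had left out, and it is set aside. There were 0 with at least 10 counts in every library, with clone sums or with voomLmFit. In nonciliated mutants, the ciliated Wdr60 clone and the nonciliated Wdr60 clone, the 1 call became 0 with clone sums and with voomLmFit, and in the ciliated Wdr60 clone also with at least 10 counts in every library. That filter removed Figf, which had 6 counts in a control library, from the test in ciliated cells. In the Wdr34 clone 3, Vegfc set aside, the 2 calls became 1, Flt1, with that filter and 0 with clone sums. Between control states the 1 call became 0 with clone sums, 4 with no fold limit and 2 without both clones low in Cdh1 and Epcam, and between Wdr60 states the 2 became 6 with no fold limit. Leaving out a clone or replicate gave 1 to 2 calls in ciliated mutants, 0 to 1 in nonciliated mutants, 0 to 2 in the ciliated Wdr60 clone, 1 to 3 between control states, and 0 to 1 and 0 to 2 members without overlap of clone means in ciliated and nonciliated cells. Shares of all genes with no fold limit, with other filters or with a clone or replicate left out are not given. Counts under those settings thus say nothing particular of the members. Without replicate 4, Figf (adjusted p = 0.117) and Pgf (0.0561) no longer differed among nonciliated controls (edgeR). Signs turned for Nrp1 in ciliated mutants with voomLmFit (0.0338) and for Vegfb in nonciliated mutants with clone sums (0.00232) and voomLmFit (0.0148). They also turned when a clone or replicate was left out, for Flt1 (-0.229 to 0.911), Nrp1 (-0.432 to 0.202) and Vegfb (-0.395 to 0.129) in ciliated mutants, for Vegfb (-0.204 to 0.165), Nrp2 (-0.555 to 0.60), Nrp1 (-0.207 to 0.0715) and Flt1 (-0.522 to 0.0203) in nonciliated mutants, for Vegfa in the nonciliated Wdr34 clone (-0.327 to 0.140), Nrp2 between control states (-0.146 to 0.417), Vegfa between Wdr60 states (-0.0196 to 0.185) and the Flt4 interaction (-1.52 to 0.260). Figf in ciliated mutants stayed called without each clone or replicate (1.29 to 2.46). The replicate numbers did not pair libraries (median r -0.00288 for the same number), and with the replicate block Flt1 in clone 3 gave 1.32 (edgeR adjusted p = 0.0523), leaving 1 call there, Vegfc set aside, and changing no other call. Clone sums could not be run for differences among control clones or between Wdr60 states. The cause of these changes was not tested.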
